A study of Rattus rattus with 24 samples.

Results

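Glycosyltransferases and carbohydrate sulfotransferases of the Golgi were followed in rat oligodendrocyte progenitor cell (OPC) cultures given thyroid hormone, quetiapine or both. The members were taken by gene symbol: the Galnt, B3gnt, B3galt, B4galt, B4galnt, St3gal, St6gal, St6galnac, St8sia, Fut, Mgat, Chst, Hs2st, Hs3st, Hs6st and Ndst families, each gene by the probe set with the highest mean over all arrays. This gave 77 of the 14217 genes that had a probe set with a single symbol. Cells from the cortex of rat pups 4 to 7 days old were selected with the A2B5 antibody, expanded in PDGF at 20 ng/ml and then treated for 48 or 96 hours with T3 (triiodothyronine, the active thyroid hormone) at 45 nM, with quetiapine (an antipsychotic drug) at 1 μM, with the combination of both, or with DMSO vehicle as control. The medium of every group, controls included, held the B27 supplement, which contains a small amount of T3, and it was renewed with the same treatment at 48 hours. Each of the 8 groups had 3 biological replicates, 24 Affymetrix arrays in all, and each replicate supplied a sample of every group, so samples with the same number were paired. The labels name the species as Rattus rattus and give no strain, while the paper's methods name Sprague Dawley rats. The labels do not say how many pups went into a replicate.

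Proteins and lipids that pass through the Golgi receive sugars one at a time, each from a nucleotide sugar donor and by an enzyme with its own linkage. Galnt enzymes start mucin-type O-glycans on serine and threonine. Mgat enzymes start the branches of N-glycans, and B3gnt and B4galt enzymes extend the branches with alternating N-acetylglucosamine and galactose. Sialyltransferases of the St3gal, St6gal and St6galnac families and fucosyltransferases cap the chains, and St8sia enzymes add sialic acid to sialic acid, as in polysialic acid and in the gangliosides that the A2B5 antibody binds. Chst, Ndst and Hs enzymes place sulfate on chondroitin, keratan and heparan sulfate chains and on other glycans. In the oligodendrocyte lineage these products include gangliosides and the chains of the proteoglycans of the progenitor surface.

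All values were log2 expression, so 1 unit is a doubling, and values were compared between groups for the same probe set and not between genes. Arrays of a group correlated with Pearson's r of 0.986 to 0.996 across probe sets. Of the 77 members, 65 had a mean level of 5 or more and 12 a mean under 5, and all 77 were tested. The mean of 11 mature oligodendrocyte markers was 10.01 to 10.38 in the control arrays at 96 hours, 11.40 to 12.23 with T3, 11.22 to 11.81 with quetiapine and 11.85 to 12.55 with the combination. The mean of 6 OPC markers at 96 hours was 11.40, 10.99 and 10.82 in control and 11.02, 10.65 and 10.51 with T3, lower in each replicate. Within that list the group means of Pdgfra (12.43 in control, 11.71 with the combination), Cspg4 (8.46 and 7.54) and Ptprz1 (12.12 and 11.23) were lower with the combination. Those of Olig1 (13.15 and 13.40), Olig2 (9.22 and 9.60) and Sox10 (11.05 and 11.13) were higher. Markers of astrocytes were also high, with a mean over 9 genes of 11.16 to 11.66 in the controls and 10.15 to 10.79 with the combination at 96 hours. Of these genes Slc1a2 went the other way, at 5.79 in control, 7.46 with T3 and 6.77 with the combination. The part of these cell types in the results below was not tested, and in whole cultures more cells of a type and more RNA per cell cannot be told apart. Markers of microglia had their highest mean, 6.58, in control replicate 2 at 48 hours.

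At 96 hours the combination changed 31 of the 77 members, with 14 higher and 17 lower, among them rises of Galnt6, B3gnt2 and St6galnac3 and falls of St6galnac5, Galnt16 and Chst10. A member was counted where limma's p, adjusted by Benjamini-Hochberg over all probe sets, was under 0.05. By the same test 15.2% of all genes were higher and 20.0% lower, so the share of members (18.2% and 22.1%) was near that of all genes. T3 alone gave 8 higher (6.58% of all genes) and 6 lower (8.08%), and quetiapine alone gave 4 higher (4.21%) and 5 lower (3.04%). The 3 treatments were compared to the same control arrays, so their counts are not independent. With the replicate number as a block the counts were 12 and 12 for T3 (11.9% and 18.2% of all genes), 9 and 16 for quetiapine (8.96% and 12.5%), and 17 and 25 for the combination (19.9% and 27.6%). Without control replicate 3 the count for quetiapine was 5 instead of 9.

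At 48 hours fewer members had changed. T3 gave 6 higher (1.06% of all genes) and 0 lower (0.366%), and 11 members had an unadjusted p under 0.05. Quetiapine gave 0 higher (0.134%) and 1 lower (0.0492%), and 14 had an unadjusted p under 0.05. The combination gave 6 higher (3.12%) and 4 lower (4.22%). With the block these became 8 and 5 (5.44% and 7.51% of all genes), 2 and 3 (1.86% and 2.76%), and 9 and 19 (10.8% and 16.2%). The T3 count was 3 without T3 replicate 1 or 2, and that of the combination was 6 without control replicate 3 or combination replicate 2 or 3. Over both times and the 3 treatments, 34 members passed the test at least once and 43 never did. The same count was not made for all genes, so it does not set the members apart from them.

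**Figure D1:**
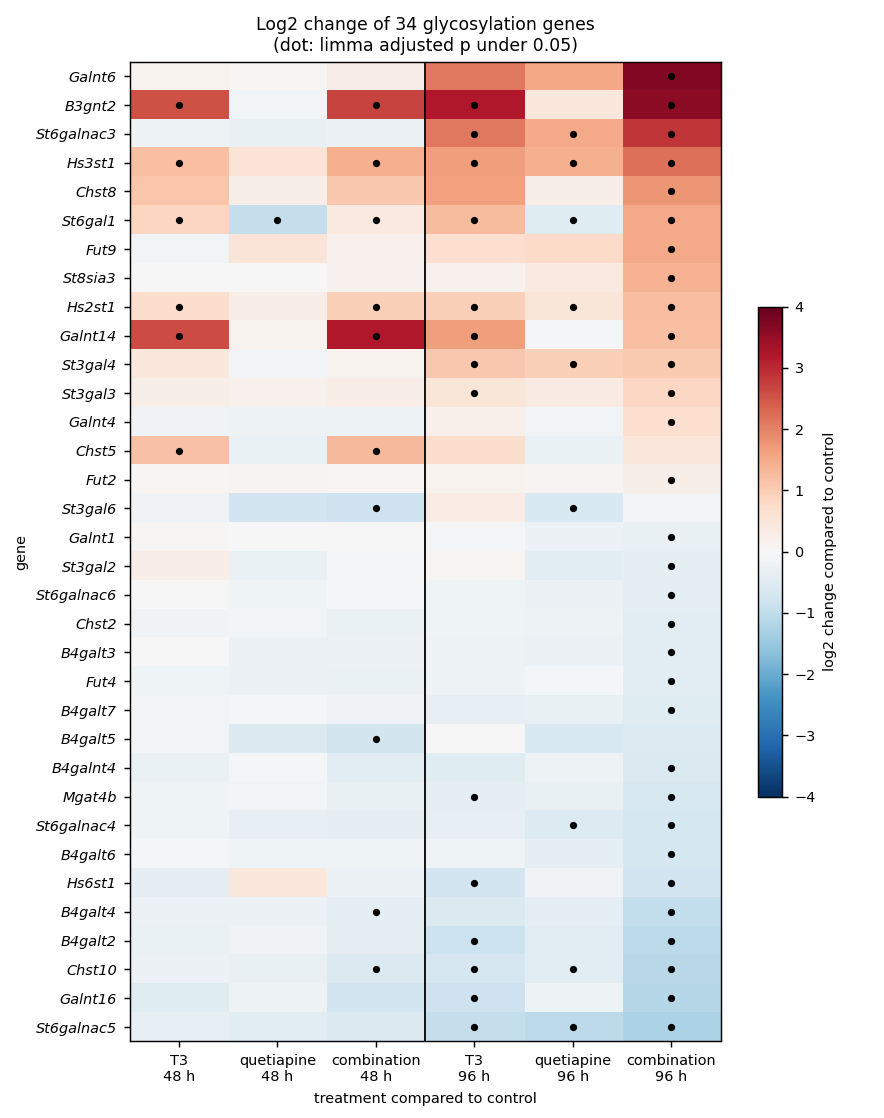
Log2 change compared to control (colour) of the 34 members that passed the test at least once, with treatments and times across and genes down, ordered by the change with the combination at 96 hours; a black dot marks an adjusted p under 0.05. The column for the combination at 96 hours holds the most dots (31 members), and in the row for St6gal1 the changes with quetiapine are negative while those with T3 and the combination are positive.

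St6gal1, 1 of the 6 enzymes that add sialic acid in alpha-2,6 linkage, caps the galactose of N-glycans. Without the block it was the one member that passed the test in opposite directions with T3 and with quetiapine. At 48 hours its levels were 9.49, 9.41 and 9.38 in control, 10.39, 10.22 and 10.21 with T3, 8.53, 8.39 and 8.51 with quetiapine, and 9.82, 9.88 and 9.76 with the combination. The 4 groups did not overlap, with quetiapine lowest and T3 highest, and the combination lay between control and T3. At 96 hours they were 9.05, 8.79 and 9.19 in control, 10.35, 10.19 and 10.28 with T3, 8.56, 8.39 and 8.62 with quetiapine, and 10.44, 10.59 and 10.56 with the combination. Quetiapine was again the lowest group, but the combination now lay above T3. The change with T3 at 48 hours was 0.85 ± 0.07 (SE, n = 3 per group, adjusted p = 0.000299), and at 96 hours it was 1.26 ± 0.11 (adjusted p = 4.48e-05). With quetiapine at 96 hours St6gal1 fell by 0.49 on the log2 scale (SE 0.11, adjusted p = 0.0224), and this call was lost when quetiapine replicate 1 or 2 or control replicate 1 or 3 was left out (highest adjusted p = 0.0891). The rise with the combination was 0.40 ± 0.07 at 48 hours (adjusted p = 0.0121, and 0.0545 at most, without combination replicate 2 or control replicate 3) and 1.52 ± 0.11 at 96 hours (adjusted p = 4.37e-06). A dimmer probe set of St6gal1, with a mean level of 5.53, was also higher with T3 at 48 hours (0.57, adjusted p = 0.0134) but did not pass the test with quetiapine (−0.24 with an adjusted p of 0.53 at 48 hours, −0.27 with one of 0.183 at 96 hours).

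St6galnac3, which adds sialic acid to N-acetylgalactosamine in O-glycans and gangliosides, changed with every treatment at 96 hours and with none at 48 hours. At 48 hours its levels ran from 6.65 to 7.50 over all 12 arrays. At 96 hours they were 7.42, 7.33 and 7.48 in control, 9.21, 9.45 and 9.89 with T3, 8.81, 8.97 and 9.04 with quetiapine, and 9.89, 10.41 and 10.53 with the combination. Every treated array lay above every control, and quetiapine lay below T3. The changes at 96 hours were 2.11 ± 0.18 with T3 (adjusted p = 6.1e-05), 1.53 ± 0.18 with quetiapine (adjusted p = 0.000922) and 2.87 ± 0.18 with the combination (adjusted p = 2.22e-06), a 7.30-fold level. All 3 calls held with any 1 array left out.

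The other changed members of this class were lower. St6galnac5, which makes an alpha-series ganglioside, had 96-hour levels of 4.99, 5.99 and 6.09 in control, 4.46, 4.72 and 5.05 with T3, 4.31, 5.02 and 4.63 with quetiapine, and 4.43, 4.32 and 4.49 with the combination. Control replicate 1 lay inside the range of the T3 and the quetiapine arrays but above the combination. Its change with the combination was −1.27 ± 0.27 (adjusted p = 0.00482). With T3 (−0.94, adjusted p = 0.0466) the call was lost without control replicate 2 or 3 or any 1 T3 replicate (highest adjusted p = 0.164), and with quetiapine (−1.04, adjusted p = 0.0492) when quetiapine replicate 1 or 3 or control replicate 2 or 3 was left out (highest adjusted p = 0.179). St6galnac4 was lower with quetiapine (−0.55 ± 0.10, adjusted p = 0.00711) and with the combination (−0.69 ± 0.10, adjusted p = 0.000342) at 96 hours, but its 2 other probe sets, with mean levels of 5.27 and 6.16, had changes of −0.17 to −0.01 and did not pass the test. St6galnac6 was lower with the combination only (−0.38 ± 0.08, adjusted p = 0.00519).

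Of the 6 alpha-2,3 sialyltransferases, St3gal4 and St3gal3, which cap galactose on glycoproteins, were higher. St3gal4 read 7.63, 7.58 and 7.56 in control at 96 hours, 8.87, 8.38 and 8.79 with T3, 8.13, 8.69 and 8.77 with quetiapine, and 8.55, 8.66 and 8.68 with the combination. The 3 treatments lay above control and overlapped with each other. Its changes were 1.09 ± 0.16 (adjusted p = 0.00197), 0.94 ± 0.16 (adjusted p = 0.00705) and 1.04 ± 0.16 (adjusted p = 0.00075). St3gal3 read 6.58, 6.59 and 6.38 in control, 7.09, 7.08 and 6.84 with T3, 7.01, 6.87 and 6.63 with quetiapine, and 7.24, 7.38 and 7.47 with the combination. The combination lay above the other groups, and quetiapine lay just above control without passing the test. St3gal3 rose with the combination by 0.84 ± 0.12 (adjusted p = 0.000335) and with T3 by 0.49 ± 0.12 (adjusted p = 0.0208), a call lost without T3 replicate 1 or 2 or control replicate 3 (highest adjusted p = 0.0866).

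St3gal6, another enzyme that caps galactose, went the other way in the presence of quetiapine. Its 48-hour levels were 6.30, 6.69 and 6.40 in control, 6.00, 6.67 and 6.31 with T3, 5.49, 5.86 and 5.72 with quetiapine, and 5.46, 6.05 and 5.43 with the combination. At 96 hours they were 5.50, 5.44 and 5.59, 5.74, 5.96 and 5.71, 4.72, 4.85 and 5.13, and 5.21, 5.46 and 5.49 in the same order. Quetiapine lay below control at both times, and the combination lay below control at 48 hours but overlapped with it at 96 hours. The change passed the test with the combination at 48 hours (−0.82 ± 0.20, adjusted p = 0.0413) and with quetiapine at 96 hours (−0.61 ± 0.12, adjusted p = 0.0137). The first call was lost without any 1 control replicate or combination replicate 1 or 3 (highest adjusted p = 0.151), and the second without quetiapine replicate 1 or control replicate 3 (highest adjusted p = 0.0598). St3gal2 was lower with the combination at 96 hours (−0.37 ± 0.12, adjusted p = 0.0438), with groups that overlapped and a call lost without replicate 1 of either group, combination replicate 2 or control replicate 3 (highest adjusted p = 0.163). St3gal5, the enzyme that makes the ganglioside GM3, did not pass the test with the combination at 96 hours (−0.06, 95% interval −0.26 to 0.15).

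Of the 4 alpha-2,8 sialyltransferases, St8sia3 was the one that passed, with the combination. At 96 hours it read 5.34, 5.41 and 5.24 in control, 5.63, 5.55 and 5.29 with T3, 5.66, 5.77 and 5.70 with quetiapine, and 6.98, 6.62 and 6.60 with the combination. The combination stood above every other array, quetiapine lay above control, and T3 overlapped with control. The change with the combination was 1.40 ± 0.12 (adjusted p = 1.29e-05) and that with quetiapine 0.38 ± 0.12 (adjusted p = 0.0887, and 0.0239 with the block), while at 48 hours all 12 arrays lay between 4.88 and 5.29. The polysialyltransferases St8sia2 and St8sia4 did not pass the test with the combination at 96 hours, with changes of 0.03 (95% interval −0.25 to 0.31) and 0.06 (−0.09 to 0.21) at mean levels of 4.15 to 4.66. St8sia1, which makes the ganglioside GD3, had a change of −0.42 (−1.15 to 0.30), with an adjusted p of 0.385 and of 0.007 with the replicate block.

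**Figure D2:**
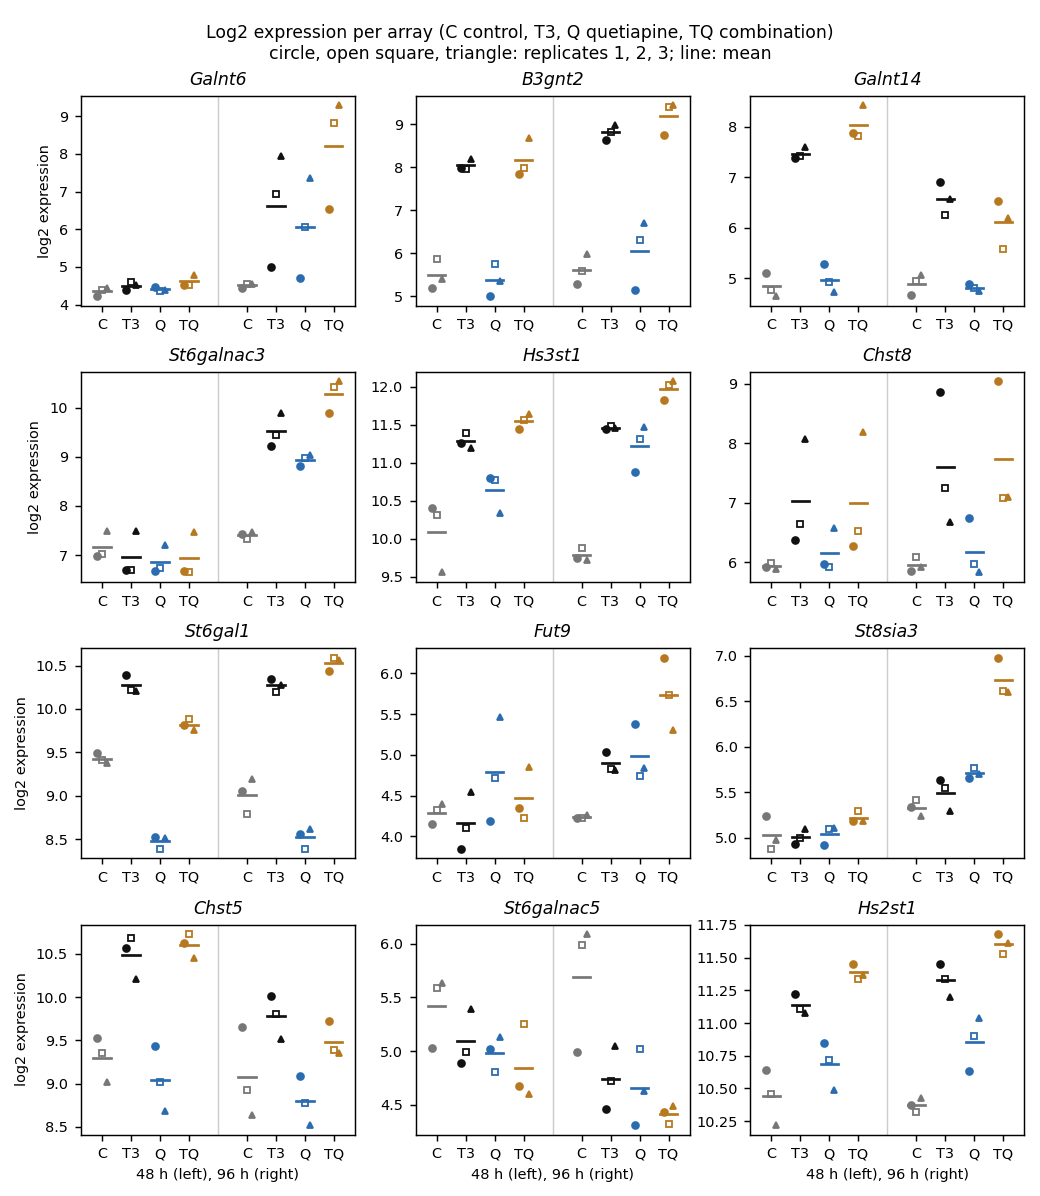
Log2 expression of the 12 members with the largest called change, 1 panel each, for control (C), T3, quetiapine (Q) and the combination (TQ) at 48 hours (left) and 96 hours (right); each marker is 1 array and each line the mean of 3. B3gnt2 is near 8 with T3 already at 48 hours, St6galnac3 leaves its control level at 96 hours alone, and Galnt6 spreads widely between replicates of the treated groups at 96 hours.

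Of the 13 Galnt genes, which start mucin-type O-glycans, Galnt14 and Galnt6 showed the largest rises. Galnt14 at 48 hours read 5.11, 4.77 and 4.65 in control, 7.38, 7.42 and 7.60 with T3, 5.29, 4.92 and 4.72 with quetiapine, and 7.88, 7.81 and 8.43 with the combination. The 96-hour levels were 4.67, 4.95 and 5.06 in control, 6.91, 6.25 and 6.57 with T3, 4.89, 4.80 and 4.74 with quetiapine, and 6.54, 5.59 and 6.19 with the combination. The cultures given T3 lay above the others at both times, quetiapine overlapped with control, and the level in the cultures given T3 was lower at 96 than at 48 hours. The change was 2.62 ± 0.19 with T3 (adjusted p = 7.08e-05) and 3.20 ± 0.19 with the combination (adjusted p = 1.54e-05), or 9.16-fold, at 48 hours. At 96 hours it was 1.68 ± 0.22 (adjusted p = 0.000999) and 1.21 ± 0.22 (adjusted p = 0.00206). The control means, 4.84 at 48 hours and 4.89 at 96 hours, were under 5, and without detection calls folds from so low a level are uncertain.

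Galnt6 read between 4.23 and 4.80 in all 12 arrays at 48 hours. The 96-hour arrays read 4.43, 4.56 and 4.55 in control, 4.99, 6.93 and 7.94 with T3, 4.72, 6.06 and 7.36 with quetiapine, and 6.54, 8.81 and 9.29 with the combination. Every treated array lay above control, and within each treatment replicate 1 was lowest and replicate 3 highest. The change with the combination was 3.70 ± 0.86 (adjusted p = 0.00779), or 13.0-fold. With T3 (2.11 ± 0.86, adjusted p = 0.151) and quetiapine (1.54 ± 0.86, adjusted p = 0.364) it did not pass the test, but it did with the replicate block (adjusted p = 0.00705 and 0.0412). The control mean of 4.51 was under 5, and without detection calls a fold from so low a level is uncertain.

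The other Galnt changes were smaller. Galnt16 was lower with T3 (−0.82 ± 0.14, adjusted p = 0.00329) and with the combination (−1.13 ± 0.14, adjusted p = 0.000144) at 96 hours, from 9.59, 9.34 and 9.49 in control to 8.88, 8.51 and 8.56 and to 8.31, 8.48 and 8.25, while quetiapine, at 9.05, 9.53 and 9.27, overlapped with control. Its 2 dimmer probe sets did not pass the test with the combination (−0.33, adjusted p = 0.279, and 0.08, adjusted p = 0.52). Galnt4 (0.68, adjusted p = 0.0327) and Galnt1 (−0.29, adjusted p = 0.0165) passed the test with the combination at 96 hours. The Galnt4 groups overlapped, and that call was lost without control replicate 1 or 3 or combination replicate 2 or 3 (highest adjusted p = 0.121). The Galnt1 call was lost without control replicate 1 or 3 or combination replicate 2 (highest adjusted p = 0.0724), and 3 other Galnt1 probe sets did not pass (−0.08 to 0.12).

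B3gnt2, the main enzyme that adds N-acetylglucosamine to extend poly-N-acetyllactosamine chains, was raised by T3 with or without quetiapine. At 48 hours it read 5.19, 5.86 and 5.40 in control, 7.98, 7.97 and 8.20 with T3, 5.0, 5.75 and 5.34 with quetiapine, and 7.84, 7.99 and 8.68 with the combination. At 96 hours it read 5.29, 5.58 and 5.97, 8.63, 8.82 and 8.99, 5.13, 6.30 and 6.71, and 8.76, 9.41 and 9.45 in the same order. At both times the arrays with T3 lay more than 1 log2 unit above those without, and quetiapine overlapped with control. The change was 2.56 ± 0.25 with T3 (adjusted p = 0.00061) and 2.69 ± 0.25 with the combination (adjusted p = 0.000258) at 48 hours, and 3.20 ± 0.35 (adjusted p = 0.000276) and 3.59 ± 0.35 (adjusted p = 3.47e-05), or 9.17-fold and 12.1-fold, at 96 hours. A second probe set, with a mean level of 6.06, rose with T3 by 1.79 at 48 hours and 2.48 at 96 hours, and a dimmer one, with a mean level of 4.42, changed by 0.25 (adjusted p = 0.355) and 0.49 (adjusted p = 0.0545). B3gnt5, which starts lacto-series glycolipids, had a change of −1.06 ± 0.38 with the combination at 96 hours (adjusted p = 0.0553, and 0.00268 with the block).

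Of the 12 galactosyl- and beta-1,4-N-acetylgalactosaminyltransferases, 6 were lower and 0 higher with the combination at 96 hours, where 20.0% of all genes were lower and 15.2% higher, and the other 6 did not pass. The median change of the 12 was −0.45 against −0.01 over all genes. With T3 1 was lower (8.08% of all genes) and with quetiapine 0 (3.04%). The block gave 4 lower under T3 (18.2% of all genes), 4 under quetiapine (12.5%) and 7 under the combination (27.6%), and 0 higher under each. B4galt2 read 8.59, 8.15 and 8.50 in control, 7.76, 7.40 and 7.48 with T3, 8.05, 7.99 and 7.96 with quetiapine, and 7.53, 7.17 and 7.30 with the combination. Its 3 treated groups lay below control, with T3 and the combination overlapping. The fall was −0.87 ± 0.14 with T3 (adjusted p = 0.0024) and −1.08 ± 0.14 with the combination (adjusted p = 0.000181). Of its 2 other probe sets, neither passed with T3 (−0.31, adjusted p = 0.133, and −0.07, adjusted p = 0.872), and the dimmer one, with a mean level of 4.51, did not pass with the combination (−0.03, adjusted p = 0.92).

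B4galt4, whose 96-hour levels were 7.52, 7.55 and 8.07 in control and 7.02, 6.59 and 6.64 with the combination, fell by 0.97 on the log2 scale (adjusted p = 0.00178). The other 4 were B4galt6, a lactosylceramide synthase (−0.71 ± 0.13, adjusted p = 0.00215), B4galt7, which adds the first galactose of the proteoglycan linker (−0.47 ± 0.11, adjusted p = 0.00776), B4galt3 (−0.43 ± 0.11, adjusted p = 0.011) and B4galnt4 (−0.58 ± 0.18, adjusted p = 0.0279). The B4galnt4 call was lost without replicate 1 of either group or combination replicate 2 (highest adjusted p = 0.0978), and its other probe set did not pass (−0.06, adjusted p = 0.833). At 48 hours B4galt5, also a lactosylceramide synthase (−0.75 ± 0.15, adjusted p = 0.0204), and B4galt4 (−0.38 ± 0.09, adjusted p = 0.039) were lower with the combination. Both calls were lost without replicate 2 or 3 of either group, and that of B4galt4 also without combination replicate 1 (highest adjusted p = 0.0835 and 0.144). The B4galt5 call was also lost when its 2 probe sets were averaged. B4galt1 did not pass the test with the combination at 96 hours (0.02, 95% interval −0.17 to 0.21), nor did B4galnt1, which makes complex gangliosides (−0.22, −0.59 to 0.15).

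Of the 6 fucosyltransferases, 2 were higher (15.2% of all genes) and 1 lower (20.0%) with the combination at 96 hours, and none passed with either compound alone. Fut9, which makes the Lewis x epitope of neural stem cells, read 4.22, 4.22 and 4.26 in control, 5.04, 4.83 and 4.82 with T3, 5.38, 4.74 and 4.84 with quetiapine, and 6.19, 5.73 and 5.30 with the combination. The 3 treatments lay above control, and combination replicate 3 lay within the range of quetiapine. Its changes were 0.66 (adjusted p = 0.0643), 0.75 (adjusted p = 0.0598) and 1.51 ± 0.21 (adjusted p = 0.000347), and with the block those of T3 and quetiapine passed (adjusted p = 0.00999 and 0.00706). Fut4, which makes the same epitope, was lower (−0.45 ± 0.11, adjusted p = 0.00927), though its other probe set read 0.26 (adjusted p = 0.119). The Fut4 means were low, at 4.70 in control and 4.25 with the combination, and the call was lost when its probe sets were averaged. Fut2 was higher by 0.24 ± 0.08 (adjusted p = 0.044), a call lost without combination replicate 2 or 3 or any 1 control replicate (highest adjusted p = 0.168), and its 2 other probe sets did not pass. Fut8, the core fucosyltransferase, had a change of 0.17 (95% interval 0.00 to 0.34, adjusted p = 0.121).

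Of the 7 Mgat genes, Mgat4b, which adds a branch to N-glycans, was the one that passed without the block. It read 10.06, 9.99 and 10.24 in control at 96 hours, 9.71, 9.72 and 9.82 with T3, 9.64, 9.91 and 9.88 with quetiapine, and 9.32, 9.49 and 9.53 with the combination. The 3 treatments lay below control, the combination lowest. It was lower with the combination (−0.65 ± 0.10, adjusted p = 0.000635) and with T3 (−0.35 ± 0.10, adjusted p = 0.0434), where the call was lost without control replicate 1 or 3 or any 1 T3 replicate (highest adjusted p = 0.152). With quetiapine the change was −0.29 (adjusted p = 0.123, and 0.0263 with the block). With the block 2 of the 7 were lower at 96 hours under each treatment. The block made 18.2% (T3), 12.5% (quetiapine) and 27.6% (combination) of all genes lower, so the combination's count was near that share. Mgat4b was lower under all 3. Beside it Mgat5b was lower with T3 (−0.35, adjusted p = 0.141 without the block and 0.0269 with it). Mgat4a was lower with quetiapine (−0.26, 0.53 and 0.0482) and Mgat5 with the combination (−0.20, 0.0772 and 0.0392). Mgat1, which starts complex N-glycans, was higher by 0.42 with quetiapine at 48 hours in the same way (adjusted p = 0.697 without the block and 0.0368 with it). Mgat2 and Mgat3 had changes of −0.02 each with the combination, with 95% intervals of −0.18 to 0.13 and −0.33 to 0.29.

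Of the 10 Chst genes, Chst5, a sulfotransferase of N-acetylglucosamine, was higher early with T3. At 48 hours it read 9.53, 9.35 and 9.02 in control, 10.57, 10.68 and 10.21 with T3, 9.43, 9.02 and 8.68 with quetiapine, and 10.63, 10.73 and 10.45 with the combination. After 96 hours it read 9.65, 8.92 and 8.64, 10.01, 9.81 and 9.51, 9.09, 8.77 and 8.52, and 9.72, 9.39 and 9.35 in the same order. The arrays with T3 lay above the others at 48 hours, and at 96 hours T3 and the combination overlapped with control but not with quetiapine. The change was 1.18 ± 0.19 with T3 (adjusted p = 0.0169) and 1.30 ± 0.19 with the combination (adjusted p = 0.00418) at 48 hours, and 0.71 (adjusted p = 0.0873) and 0.41 (adjusted p = 0.235) at 96 hours, where both passed with the block (adjusted p = 0.00145 and 0.0133). The T3 call at 48 hours was lost without replicate 2 of either group, T3 replicate 1 or control replicate 3 (highest adjusted p = 0.0934), and a second Chst5 probe set gave 1.21 with an adjusted p of 0.0647.

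Chst8, which sulfates N-acetylgalactosamine, differed strongly between replicates. At 96 hours it read 5.86, 6.08 and 5.92 in control, 8.87, 7.25 and 6.68 with T3, 6.74, 5.97 and 5.83 with quetiapine, and 9.04, 7.08 and 7.09 with the combination. At 48 hours it read 5.92, 5.99 and 5.89, 6.38, 6.64 and 8.07, 5.97, 5.92 and 6.58, and 6.27, 6.53 and 8.19 in the same order. The arrays with T3 lay above control at both times, with replicate 1 highest at 96 hours and replicate 3 highest at 48 hours. The change with the combination at 96 hours was 1.78 ± 0.59 (adjusted p = 0.0405), a call lost without combination replicate 1 or any 1 control replicate (highest adjusted p = 0.13). With T3 at 96 hours it was 1.65 ± 0.59 (adjusted p = 0.0989, and 0.00989 with the block).

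Chst10, which sulfates glucuronic acid to make the HNK-1 epitope, fell with all 3 treatments. Its 96-hour levels were 9.26, 9.34 and 9.38 in control, 8.68, 8.61 and 8.66 with T3, 8.85, 8.94 and 8.81 with quetiapine, and 8.35, 8.04 and 8.22 with the combination. The 4 groups did not overlap, and the combination was lowest. The changes were −0.68 ± 0.08 (adjusted p = 0.000672), −0.46 ± 0.08 (adjusted p = 0.00944) and −1.12 ± 0.08 (adjusted p = 6.77e-06). At 48 hours it passed with the combination (−0.58 ± 0.12, adjusted p = 0.018), a call lost without combination replicate 2 or 3 (highest adjusted p = 0.0673). Chst2 was lower with the combination at 96 hours (−0.42 ± 0.12, adjusted p = 0.0196), a call lost without combination replicate 2 or control replicate 3 (highest adjusted p = 0.0814). The chondroitin sulfotransferases Chst3 and Chst11 did not pass, with changes of 0.06 (95% interval −0.19 to 0.31) and 0.16 (−0.03 to 0.35).

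Of the 9 heparan sulfate sulfotransferases, Hs3st1 and Hs2st1 were higher and Hs6st1 was lower at 96 hours. Hs3st1, which places the rare 3-O-sulfate of the antithrombin binding site, read 10.41, 10.31 and 9.56 in control at 48 hours, 11.26, 11.39 and 11.20 with T3, 10.80, 10.77 and 10.34 with quetiapine, and 11.44, 11.56 and 11.64 with the combination. The 96-hour levels were 9.75, 9.88 and 9.72, 11.44, 11.48 and 11.46, 10.88, 11.31 and 11.47, and 11.83, 12.02 and 12.07 in the same order. At 96 hours every treated array lay above control and the combination above T3. The change at 96 hours was 1.67 ± 0.13 with T3 (adjusted p = 2.9e-05), 1.43 ± 0.13 with quetiapine (adjusted p = 0.000155) and 2.19 ± 0.13 with the combination (adjusted p = 1.5e-06), or 4.57-fold. At 48 hours it was 1.19 ± 0.20 with T3 (adjusted p = 0.019, lost without any 1 T3 replicate, at most 0.101) and 1.45 ± 0.20 with the combination (adjusted p = 0.00264).

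Hs2st1, the 2-O-sulfotransferase, read 10.64, 10.46 and 10.22 in control at 48 hours, 11.22, 11.11 and 11.08 with T3, 10.85, 10.72 and 10.49 with quetiapine, and 11.45, 11.34 and 11.37 with the combination. Later, at 96 hours, it read 10.37, 10.32 and 10.43, 11.45, 11.34 and 11.20, 10.63, 10.90 and 11.04, and 11.68, 11.53 and 11.61 in the same order. The order of the groups at both times was combination, T3, quetiapine and control from high to low, with quetiapine and control overlapping at 48 hours. The changes at 96 hours were 0.96 ± 0.10 (adjusted p = 0.000296), 0.49 ± 0.10 (adjusted p = 0.0222) and 1.24 ± 0.10 (adjusted p = 1.51e-05) for T3, quetiapine and the combination, and at 48 hours T3 gave 0.70 ± 0.12 (adjusted p = 0.017) and the combination 0.95 ± 0.12 (adjusted p = 0.00143). The quetiapine call was lost without replicate 2 or 3 of either group (highest adjusted p = 0.0822), and the T3 call at 48 hours without any 1 T3 replicate or control replicate 2 or 3 (highest adjusted p = 0.0736).

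Hs6st1, a 6-O-sulfotransferase, read 8.27, 8.56 and 8.59 in control at 96 hours, 7.84, 7.63 and 7.62 with T3, 7.84, 8.50 and 8.69 with quetiapine, and 7.61, 7.61 and 7.91 with the combination. The arrays with T3 lay below control, and quetiapine overlapped with it. The change was −0.78 ± 0.19 with T3 (adjusted p = 0.0237, lost without replicate 2 or 3 of either group, at most 0.0869) and −0.76 ± 0.19 with the combination (adjusted p = 0.011). At 48 hours Hs6st1 passed with the block alone, higher with quetiapine (0.43, adjusted p = 0.615 without the block and 0.00775 with it) and lower with T3 (−0.39, 0.406 and 0.00393) and the combination (−0.23, 0.53 and 0.0253), and each group overlapped with control. The N-deacetylase/N-sulfotransferases Ndst1 and Ndst2, which start the modification of the chain, did not pass, with changes of 0.10 (95% interval −0.09 to 0.30) and 0.14 (−0.01 to 0.30) with the combination.

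**Figure D3:**
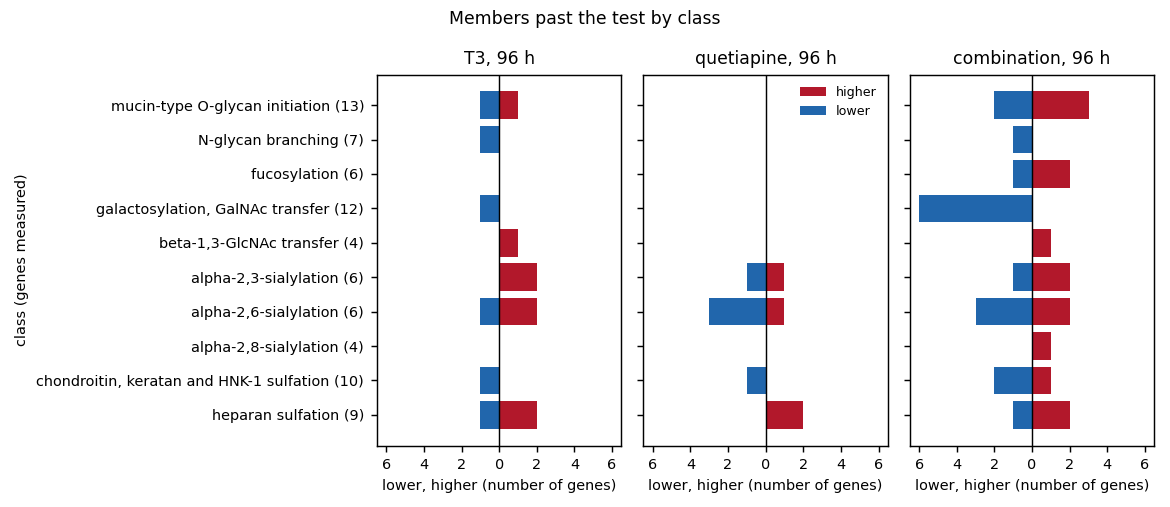
Number of members past the test at 96 hours by class of enzyme (down, with the number measured), higher to the right in red and lower to the left in blue, 1 panel per treatment. With the combination 6 of 12 galactosyl- and N-acetylgalactosaminyltransferases are lower and 0 higher, and the alpha-2,3 and alpha-2,6 sialylation, Chst and heparan sulfation classes have bars with every treatment.

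The compounds were also compared directly. Quetiapine against T3 at 48 hours gave 1 member higher (0.696% of all genes) and 5 lower (1.46%), and at 96 hours 1 higher (1.01%) and 5 lower (2.30%); with the block these were 4 and 12 (5.14% and 6.91%) and 3 and 13 (6.66% and 7.77%). B3gnt2 was lower with quetiapine at both times, with log2 changes of −2.68 (adjusted p = 0.000357) and −2.77 (adjusted p = 0.00211). Galnt14 (−2.49, adjusted p = 7.68e-05, and −1.77, adjusted p = 0.00222) and St6gal1 (−1.79, adjusted p = 1.07e-06, and −1.75, adjusted p = 7.86e-06) also differed at both times. Chst5 (−1.44, adjusted p = 0.00453) differed at 48 hours and St3gal6 (−0.91, adjusted p = 0.00288) at 96 hours. The remaining calls were Hs6st1 (0.83, adjusted p = 0.0495) and St3gal2 (−0.53, adjusted p = 0.0338) at 48 hours, and Galnt16 (0.63, adjusted p = 0.0357) and Hs2st1 (−0.47, adjusted p = 0.0407) at 96 hours. These 4 calls were lost when 1 of several arrays was left out: for Hs6st1 quetiapine replicate 1 or 2 or T3 replicate 2 or 3 (at most 0.196), for St3gal2 any 1 array (0.142), for Galnt16 replicate 2 or 3 of either group (0.16) and for Hs2st1 any but quetiapine replicate 3 (0.148).

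The combination against T3 at 96 hours gave 1 member higher (1.29% of all genes), St8sia3 (1.24 ± 0.12, adjusted p = 0.00171), and 1 lower (1.04%), Chst10 (−0.44 ± 0.08, adjusted p = 0.0259). With the block 7 were higher (6.06%) and 8 lower (8.86%), St6galnac3 (0.76, adjusted p = 0.0626 without the block and 0.00395 with it) and Hs3st1 (0.52, 0.0707 and 0.012) among them. The Chst10 call was lost without any 1 T3 replicate or combination replicate 2 or 3 (highest adjusted p = 0.109), and the count was 1 without T3 replicate 2 or 3 or combination replicate 2 and 4 without combination replicate 1. Members that T3 raised did not all differ between the combination and T3: the difference was 0.39 for B3gnt2 (95% interval −0.37 to 1.16), −0.47 for Galnt14 (−0.96 to 0.03) and −0.05 for St3gal4 (−0.41 to 0.31).

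The combination against quetiapine at 96 hours gave 10 higher (4.36% of all genes) and 3 lower (4.87%), and 15 and 10 (10.1% and 13.7%) with the block. The largest were B3gnt2 (3.16 ± 0.35, adjusted p = 0.000646), St6gal1 (2.01 ± 0.11, adjusted p = 2.05e-06), St6galnac3 (1.34 ± 0.18, adjusted p = 0.00237) and Galnt14 (1.30 ± 0.22, adjusted p = 0.00762). The lower ones were Galnt16 (−0.93 ± 0.14, adjusted p = 0.00319), B4galt2 (−0.67 ± 0.14, adjusted p = 0.0148) and Chst10 (−0.66 ± 0.08, adjusted p = 0.00151). The call of B4galt2 was lost without quetiapine replicate 2 or combination replicate 2 or 3 (highest adjusted p = 0.0714).

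The interaction at 96 hours, how far the combination's log2 change exceeds T3's and quetiapine's added together, passed limma's test for 0 members in either direction (0.00703% and 0.0422% of all genes), with 6 at an unadjusted p under 0.05 and a count of 1 without quetiapine replicate 1. With the block it passed for St8sia3 and Hs3st1, 1 higher (0.0563%) and 1 lower (0.309%). It was 0.86 for St8sia3 (95% interval 0.50 to 1.22, adjusted p = 0.168, and 0.0431 with the block), above the sum, and −0.92 for Hs3st1 (−1.32 to −0.51, adjusted p = 0.227, and 0.0469 with the block), below the sum. For St6gal1 it was 0.75 (0.42 to 1.08, adjusted p = 0.226, and 0.052 with the block) and for B3gnt2 −0.04 (−1.12 to 1.04). The member with the largest interaction in size was St3gal4, at −0.99 (−1.49 to −0.48, adjusted p = 0.458, and 0.195 with the block).

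In the control cultures 0 members passed limma's test between 48 and 96 hours in either direction (0.0141% of all genes each way), with 10 at an unadjusted p under 0.05. With the block 2 were higher (3.47%) and 2 lower (0.943%): Chst1 (0.53) and Galnt18 (0.37), and St6gal1 (−0.42) and St3gal6 (−0.95, adjusted p = 0.0748 without the block and 0.000432 with it). With T3 3 were higher (3.36%) and 3 lower (4.97%), with quetiapine 3 (2.58%) and 2 (0.844%), and with the combination 10 (11.3%) and 13 (15.9%). The block gave 8 and 9 with T3 (8.83% and 15.3%), 7 and 6 with quetiapine (6.51% and 7.53%) and 12 and 17 with the combination (15.5% and 23.6%). St6galnac3 rose in all 3, by 2.55 with T3 (adjusted p = 2.5e-05), 2.07 with quetiapine (adjusted p = 8.62e-05) and 3.34 with the combination (adjusted p = 7.49e-08). Galnt14 fell with T3 (−0.89, adjusted p = 0.0214) and with the combination (−1.93, adjusted p = 7.19e-06), and Chst5 with the combination (−1.12, adjusted p = 0.00163). The Galnt14 call with T3 was lost without T3 replicate 1 at 48 hours or replicate 2 or 3 at either time (highest adjusted p = 0.135). The T3 count was 1 to 3 without T3 replicate 1 or 2 at 48 hours or 2 or 3 at 96 hours, the quetiapine count 3 without quetiapine replicate 2 at 48 hours, and the combination count 13 without combination replicate 2 at 96 hours.

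Whether an effect differed between the times was tested as the change at 96 hours less that at 48 hours. The combination gave 7 members higher (4.91% of all genes) and 2 lower (3.26%), or 11 and 9 with the block (9.43% and 12.5%). T3 gave 1 higher (0.0563%) and 0 lower (0.0%), or 1 and 1 with the block (1.16% and 0.211%), and quetiapine 1 (0.134%) and 0 (0.0%), or 2 and 0 (1.30% and 0.113%). That single member was St6galnac3 with both compounds, by 2.32 (adjusted p = 0.0137) with T3 and 1.83 (adjusted p = 0.0492) with quetiapine. The T3 call was lost without T3 replicate 2 at 48 hours or 3 at 96 hours (highest adjusted p = 0.0664), and the quetiapine call without 10 of the 12 arrays, 1 at a time (0.189), the exceptions being quetiapine replicate 3 at 48 hours and replicate 1 at 96 hours. The T3 count was 2 without control replicate 3 at 48 hours and the quetiapine count 2 without quetiapine replicate 1 at 96 hours. The count for the combination was 4 or 5 without control or combination replicate 1 or 2 at 48 hours, control replicate 3 at 96 hours, or combination replicate 2 or 3 at 96 hours.

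**Figure D4:**
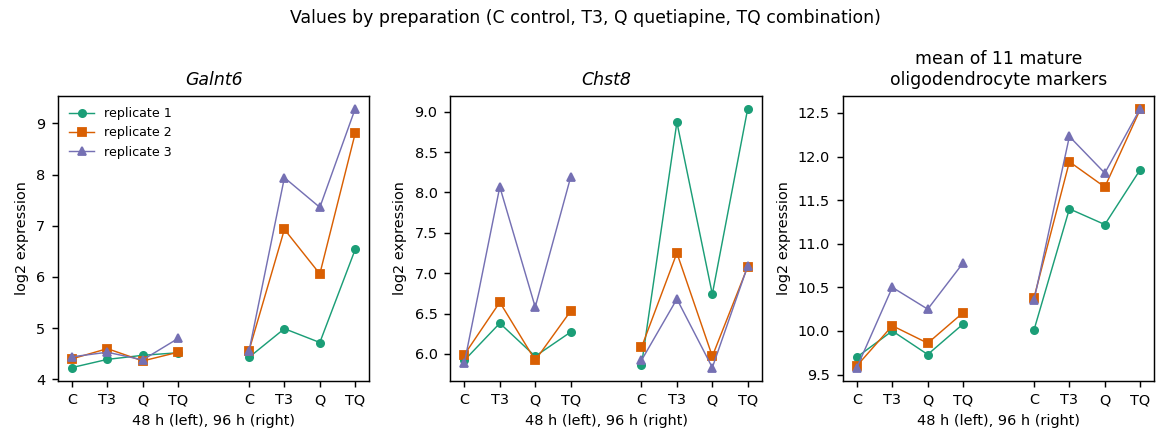
Log2 expression of Galnt6 and Chst8 and the mean of 11 mature oligodendrocyte markers in each replicate (colour and marker; lines join the samples of a replicate) for control (C), T3, quetiapine (Q) and the combination (TQ) at 48 hours (left) and 96 hours (right). At 96 hours replicate 1 is lowest in each treated group for Galnt6 and for the markers, while for Chst8 it is highest.

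The marker mean of the treated cultures differed between replicates, and Galnt6 and Chst8 differed in opposite order with T3 at 96 hours. A link between the marker mean and these genes was not tested. The marker mean with T3 at 96 hours was 11.40, 11.94 and 12.23 in replicates 1, 2 and 3, where Galnt6 was 4.99, 6.93 and 7.94 and Chst8 was 8.87, 7.25 and 6.68. With the combination the marker mean was 11.85, 12.54 and 12.55. With quetiapine it was 11.22, 11.65 and 11.81. In control it was 10.01, 10.38 and 10.35, so replicate 1 was lowest without treatment too. At 48 hours with T3 it was 10.00, 10.06 and 10.50, where Chst8 was 6.38, 6.64 and 8.07, so that Chst8 was highest in the replicate with the highest marker mean at 48 hours and in that with the lowest at 96 hours.

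Genes that supply or use the same pathway were counted from 4 lists. By the same test at 96 hours, 15.2% of all genes were higher and 20.0% lower with the combination, 6.58% and 8.08% with T3, and 4.21% and 3.04% with quetiapine, and the counts below are to be read against these shares. Of 32 donor genes measured, 6 were higher and 5 lower with the combination at 96 hours, 3 and 1 with T3, and 3 and 2 with quetiapine, which for the combination is near the share of all genes. Slc35a2, the UDP-galactose transporter, rose by 0.59 with T3 (adjusted p = 0.00428), 0.59 with quetiapine (adjusted p = 0.00643) and 1.08 with the combination (adjusted p = 2.79e-05). Slc35c1, the GDP-fucose transporter, rose by 0.45, 0.41 and 0.71 (adjusted p = 0.0107, 0.0251 and 0.000217). Papss2, which makes the sulfate donor PAPS, rose already at 48 hours, by 0.57 with T3 (adjusted p = 0.0306), 0.89 with quetiapine (adjusted p = 0.0117) and 1.26 with the combination (adjusted p = 0.000146). Nans, which makes sialic acid, was lower with T3 (−0.41, adjusted p = 0.0135) and the combination (−0.58, adjusted p = 0.000646) at 96 hours.

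Of 42 other Golgi enzymes, 9 were higher and 9 lower with the combination at 96 hours, 4 and 4 with T3, and 2 and 2 with quetiapine, again near the shares of all genes given above. Man1a1, a mannosidase that trims N-glycans, rose by 1.87 (adjusted p = 0.00223), 1.77 (adjusted p = 0.00487) and 2.96 (adjusted p = 3.36e-05) with T3, quetiapine and the combination. B3galnt1, the globoside synthase, changed by −1.21 (adjusted p = 0.000568), −0.69 (adjusted p = 0.0207) and −1.78 (adjusted p = 1.29e-05). Ugt8, which makes galactosylceramide, rose by 0.73, 0.71 and 0.92 (adjusted p = 0.0024, 0.00446 and 0.000161), and Chsy1, a chondroitin synthase, fell with T3 (−0.92, adjusted p = 0.00212) and the combination (−1.41, adjusted p = 3.99e-05). Ugt8 and Gal3st1 of this list are also among the mature oligodendrocyte markers.

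The next list held 25 measured genes: core proteins of the proteoglycans that carry many of these chains, and other carriers such as Ncam1 and Tnr. With the combination at 96 hours 13 were lower and 1 higher (20.0% and 15.2% of all genes). T3 gave 7 and 0 (8.08% and 6.58%), and quetiapine 4 and 0 (3.04% and 4.21%). Cspg4 and Ptprz1 of this list are also among the OPC markers given above, so the 2 lists are not independent. Agrn, a heparan sulfate proteoglycan, changed by −1.32 (adjusted p = 0.000514), −0.81 (adjusted p = 0.0127) and −1.81 (adjusted p = 1.75e-05) with T3, quetiapine and the combination. Cspg5, a chondroitin sulfate proteoglycan, changed by −0.55, −0.84 and −1.26 (adjusted p = 0.0326, 0.00693 and 0.000107). Gpc4 (−2.13, adjusted p = 0.00915) and Sdc4 (−2.07, adjusted p = 0.00533), which carry heparan sulfate, fell with the combination. Of 17 enzymes of glycan removal, 6 were higher and 2 lower with the combination (15.2% and 20.0% of all genes), 6 and 0 with T3 (6.58% and 8.08%), and 1 and 0 with quetiapine (4.21% and 3.04%). Galc, the galactosylceramidase, rose by 0.79 with T3 (adjusted p = 0.00989) and 1.23 with the combination (adjusted p = 0.000221), and Manba, a mannosidase, by 0.67, 0.72 and 1.13 (adjusted p = 0.0413, 0.0471 and 0.00109) with T3, quetiapine and the combination. With the replicate block the counts at 96 hours were 8 higher and 6 lower of the donor genes with the combination, 4 and 4 with T3 and 4 and 4 with quetiapine. Of the other Golgi enzymes they were 11 and 12, 9 and 9, and 7 and 5 in the same order. Of the core proteins and carriers they were 2 and 17, 1 and 12, and 1 and 10. Of the enzymes of glycan removal they were 6 and 3, 6 and 1, and 3 and 3. The shares of all genes higher and lower were 19.9% and 27.6%, 11.9% and 18.2%, and 8.96% and 12.5%.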

How the data were processed

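RNA of 24 OPC cultures was measured on 1-colour Affymetrix rat arrays. The values deposited by the authors are log2 expression, made with RMA (background correction, quantile normalization and probe set summary); the submitters' processing notes name RMA and limma without versions. Quantile normalization gives all arrays the same distribution of probe signals before the summary, so a shift of all genes together is not seen. The array medians of the deposited probe set values still ran from 6.43 to 6.51. Symbols came from the array's annotation: of 31042 probe sets tested, 20826 had 1 symbol, 436 several and 9780 none, after 57 control probe sets were left out. Day 0 arrays and raw signals were not analysed here, and no genome coordinates or sequences were used. The files hold no detection calls.

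The deposited values entered limma 3.58.1 (R 4.3.3; lmFit, contrasts.fit, eBayes), with 4 group means over the 12 arrays of a time and no block. Contrasts between times came from a fit of all 24 arrays, also without a block. These main fits did not use the pairing of the samples. P-values were adjusted by Benjamini-Hochberg over all 31042 probe sets, and an adjusted p under 0.05 was the call, with no fold limit and no filter on low values. The script was tested on simulated data. Values after ± are standard errors of the log2 change, and intervals are 95% from the same fit. The number of arrays sets the precision.

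By the deposited design, every condition was sampled from every biological replicate, which pairs samples of the same number. Deviations from group means correlated at 0.43 to 0.777 within the 18 same-number pairs at 48 hours and 0.309 to 0.69 at 96 hours, against −0.681 to −0.00478 and −0.583 to 0.243 for the 36 pairs of different number. The deviations of a group cancel out, so pairs of different number are drawn to negative values where same-number pairs correlate. Their values are therefore not separate evidence of the pairing. The fit with the replicate as a block was the alternative. Other alternatives were median centring, leaving out probe sets with a mean under 5, averaging a gene's probe sets, 1 fit of all 24 arrays for the treatment contrasts, and leaving out each array in turn. All of these were run without the block, so how calls with the block depend on single arrays was not tested.

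The members and gene lists were chosen with earlier results of these data known. Every member could be named with its level; array values were given for up to 20 members called in a treatment compared to control, in order of their largest change; changes were given for up to 12 called members in each direction and up to 4 called genes of another list; and other probe sets were given where their direction or call differed. The changes of a few members that did not pass were added after their values were seen, as members with a known role in gangliosides, polysialic acid, N-glycans or sulfation.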

Additional observations from a re-analysis of the deposited data

Results flagged for a closer look

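The change at 96 hours less that at 48 hours passed limma's test for 9 members with the combination and for 1 member with each compound alone. St6galnac3 had a larger effect at 96 hours with each treatment: the difference was 2.32 for T3 (adjusted p = 0.0137), 1.83 for quetiapine (adjusted p = 0.0492) and 3.10 for the combination (adjusted p = 5.82e-05). With the combination the later effect was also larger for Galnt6 (3.44, adjusted p = 0.0321), Fut9 (1.33, adjusted p = 0.0403), St8sia3 (1.22, adjusted p = 0.000192), St6gal1 (1.12, adjusted p = 5.82e-05), St3gal4 (0.89, adjusted p = 0.0486) and St3gal3 (0.57, adjusted p = 0.0395). It was lower for Galnt14 (−1.98, adjusted p = 0.000892), whose rise had become smaller, and for Chst10 (−0.53, adjusted p = 0.0318), whose fall had become deeper. The calls of St6galnac3, St8sia3, St6gal1 and Galnt14 with the combination held with any 1 of the 12 arrays left out. Those of Galnt6, Fut9, St3gal4, St3gal3 and Chst10 were each lost without 1 or more arrays, with a highest adjusted p of 0.0953 to 0.134, and with the replicate block all 9 passed.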

How the results depend on the processing

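With the replicate number as a block, which uses the pairing of the samples, the members past the test numbered 13 instead of 6 for T3, 5 instead of 1 for quetiapine, 28 instead of 10 for the combination and 16 instead of 6 for quetiapine against T3 at 48 hours. At 96 hours they numbered 24 instead of 14 for T3, 25 instead of 9 for quetiapine, 42 instead of 31 for the combination, 16 instead of 6 for quetiapine against T3, 15 instead of 2 for the combination against T3, 25 instead of 13 for the combination against quetiapine and 2 instead of 0 for the interaction. Between the times they numbered 4 instead of 0 in control, 17 instead of 6 with T3, 13 instead of 5 with quetiapine and 29 instead of 23 with the combination. For the difference of effects between the times they numbered 2 instead of 1 with T3, 2 instead of 1 with quetiapine and 20 instead of 9 with the combination. The share of all genes past the test also rose with the block in each of these contrasts. For T3 at 96 hours it went from 6.58% higher and 8.08% lower to 11.9% and 18.2%. The gains were therefore not particular to the members. The block changed no direction and lost no call of a named member. In 1 fit of all 24 arrays the combination differed from T3 in 4 members instead of 2. With each array left out in turn the counts at 48 hours ran from 3 to 6 for T3, 1 to 1 for quetiapine, 6 to 11 for the combination and 4 to 5 for quetiapine against T3. At 96 hours they ran from 10 to 14 for T3, 5 to 10 for quetiapine, 25 to 31 for the combination, 4 to 6 for quetiapine against T3, 1 to 4 for the combination against T3, 9 to 15 for the combination against quetiapine and 0 to 1 for the interaction, where the 1 came without quetiapine replicate 1. Between the times they ran from 0 to 0 in control, 1 to 9 with T3, 3 to 5 with quetiapine and 13 to 26 with the combination, and for the difference of effects from 0 to 2 with T3, 0 to 2 with quetiapine and 4 to 11 with the combination. No result reversed under any alternative tried. Median centring lost 6 calls of named members (Hs6st1, Mgat4b, St6galnac5, St3gal2, B3galt6 and B4galt7, each in 1 contrast), averaging the probe sets of a gene lost 10 and the fit of 24 arrays 3. Leaving out probe sets with a mean under 5 lost no call but left St6galnac5, Fut9 and Fut4 untested. The causes were not tested. With 3 arrays per group, small changes of single members could be missed, and a call at an adjusted p just under 0.05 depended on single arrays in many cases: calls of named members with 1 array left out were kept in 680 cases and lost in 244.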
